A study of Mus musculus with 4 samples.

Results

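The 8 genes described here encode the enzymes that write, maintain and remove DNA methylation in mouse cells, together with the proteins that guide them: Dnmt1, Dnmt3a, Dnmt3b, Dnmt3l, Uhrf1, Tet1, Tet2 and Tet3. They were taken by name from a table of 22686 genes, and all 8 were found. The data come from mRNA sequencing of 4 libraries of epiblast stem cells (EpiSCs), a primed pluripotent cell type, made from female mouse embryos at E6.5 of a cross between C57BL6/J and a JF1 x C57BL6/J F1 parent. Smchd1 genotype, +/+ or MD1/MD1, was combined with either XistdeltaA/+ or Xist1lox/+, so every library, controls included, was heterozygous for an Xist mutation. Lists of 4 values always run in the order XistdeltaA/+ with +/+ and then MD1/MD1, followed by Xist1lox/+ with +/+ and then MD1/MD1. Each combined genotype had 1 library, no difference within a pair has a replicate check, and the labels do not say how many embryos or cultures stand behind a library. The table gives 3 values per gene and library: FPKM (fragments scaled to gene length and library depth), the number of reads assigned to a parental allele, and the share of those reads that came from the paternal allele.

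DNA methylation is set on unmethylated DNA by DNMT3A and DNMT3B, with DNMT3L as a cofactor that has no catalytic activity of its own, and is copied after replication by DNMT1, which UHRF1 brings to hemimethylated CG sites. TET1, TET2 and TET3 oxidise methylated cytosine and so open the way to its removal. Primed pluripotent cells are known for abundant DNMT3B and little DNMT3L. SmcHD1, the product of the gene mutated in MD1/MD1 cells, is a chromatin protein known to be needed for methylation of many CG-rich promoters on the inactive X chromosome.

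Because CG sites are the substrate of these enzymes, the stretch upstream of the start site is shown for the members at the extremes of expression: Dnmt3b as the highest and Dnmt3l as the lowest of the DNMT genes, Tet1 as the highest and Tet2 as the lowest of the TET genes. Sequences are from RefSeq in build GRCm38.p6, not the mm9 build of the expression table. Each is the 250 bases before the start, 5′ to 3′ on the strand of the gene, with every CG in capitals.
Dnmt3b (chr2:153649199-153649448, + strand): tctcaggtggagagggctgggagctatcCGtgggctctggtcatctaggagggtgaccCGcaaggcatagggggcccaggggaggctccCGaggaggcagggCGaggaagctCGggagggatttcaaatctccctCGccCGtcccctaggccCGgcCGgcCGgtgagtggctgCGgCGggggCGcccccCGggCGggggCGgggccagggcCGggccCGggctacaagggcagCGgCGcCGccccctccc
Dnmt3l, the most upstream of 3 starts (chr10:78042037-78042286, + strand): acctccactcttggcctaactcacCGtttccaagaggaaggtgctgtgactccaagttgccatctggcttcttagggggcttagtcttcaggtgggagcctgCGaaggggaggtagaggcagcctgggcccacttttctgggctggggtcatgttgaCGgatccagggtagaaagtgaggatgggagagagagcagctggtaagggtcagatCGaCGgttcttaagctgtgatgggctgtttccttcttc
Tet1 (chr10:62887325-62887574, - strand): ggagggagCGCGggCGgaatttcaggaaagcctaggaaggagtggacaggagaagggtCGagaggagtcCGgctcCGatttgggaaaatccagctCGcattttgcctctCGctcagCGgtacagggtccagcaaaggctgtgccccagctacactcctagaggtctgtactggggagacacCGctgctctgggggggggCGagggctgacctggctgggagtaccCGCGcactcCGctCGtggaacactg
Tet2 (chr3:133544391-133544640, - strand): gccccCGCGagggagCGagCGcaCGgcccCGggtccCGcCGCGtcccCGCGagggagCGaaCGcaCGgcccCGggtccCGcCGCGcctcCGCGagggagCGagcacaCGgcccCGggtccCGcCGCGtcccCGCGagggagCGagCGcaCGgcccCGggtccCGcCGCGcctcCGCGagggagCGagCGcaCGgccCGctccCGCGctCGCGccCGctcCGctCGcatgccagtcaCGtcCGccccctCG
The motif searched was CG, which reads the same on both strands. It occurred 21 times before Dnmt3b, 5 times before Dnmt3l, 15 times before Tet1 and 51 times before Tet2. Of 32851 such windows in the reference table, 92.1% held at least 1 CG and the median was 6. All 8 members had a window there, 15 in all. The other starts of Dnmt3l held 4 and 3. The 3 starts of Dnmt3a held 38, 40 and 15, the 3 of Dnmt1 held 2, 7 and 26, the pair of Uhrf1 held 10 and 30, and that of Tet3 held 17. The window of Tet2 held more CG sites than 99.9% of windows although Tet2 was the lowest of the TET genes, while each of the 3 Dnmt3l windows lay below the median. These counts describe the letters and not the methylation state, which was not measured.

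The labels were checked on Smchd1, at 27.0, 6.68, 20.9 and 5.98 FPKM and so low in both MD1/MD1 libraries. Allele-assigned reads numbered 7301034 to 8008500 a library. Of 12 primed markers 11 reached a mean FPKM of 1, with Pou5f1 at 551 to 984, Fgf5 at 25.6 to 41.8 and Otx2 at 44.4 to 80.9. T did not, at 0.465 or less, and Lefty2 varied, at 84.1, 71.1, 14.9 and 120. Of 10 naive markers only Klf2, Klf4 and Klf5 exceeded a mean of 1, at 30.8 to 50.6, 24.2 to 34.8 and 4.56 to 11.6 FPKM. Zfp42 and Esrrb were at most at 1.15 and 0.480. The +/+ XistdeltaA/+ library stood apart. Of 13 macrophage genes in the table, 5 were listed at 0 there and none at 0 in the other 3 libraries, and their summed FPKM was 23.8, 1031, 368 and 333. The sums of 11 fibroblast genes were 88.3, 419, 155 and 161. Single genes weighed heavily, with Lyz2 of the macrophage list at 0.384, 799, 274 and 247. S100a4 of the fibroblast list was at 6.90, 200, 57.8 and 64.3. Cd68 of the macrophage list, and Postn, Thy1, Dcn and Pdgfrb of the fibroblast list, were not lowest in +/+ XistdeltaA/+. Results that rest on the XistdeltaA/+ pair are therefore given beside the Xist1lox/+ pair.

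The levels of the 8 genes had the same order in every library. From high to low this was Dnmt3b, Uhrf1, Dnmt1, Dnmt3a, Tet1, Tet3, Tet2 and Dnmt3l. The lowest library of each gene lay above the highest library of the next gene, so no neighbours in the order overlapped, as the plot of levels by library shows. The sum of the 4 DNMT genes was 18.9, 34.2, 39.6 and 39.6 times that of the 3 TET genes in the 4 libraries.

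**Figure D1:**
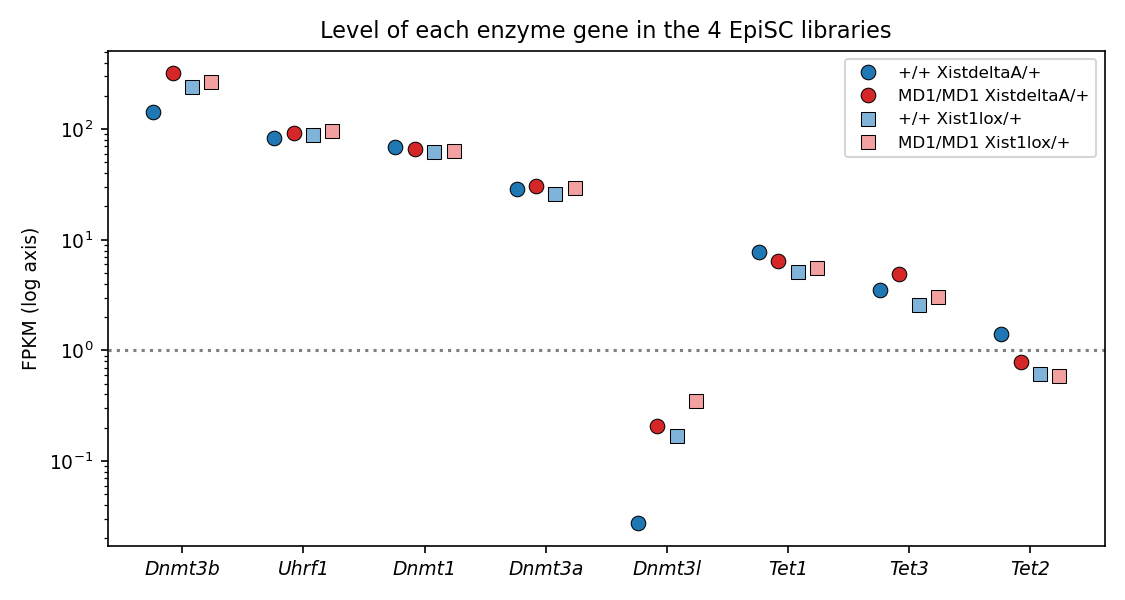
FPKM of each gene (log axis) in the 4 libraries, 1 point per library, with the dotted line at an FPKM of 1. Dnmt3b lies between 144 and 319.9 and its lowest point is the +/+ XistdeltaA/+ library, while Dnmt3l stays at or below 0.349 in every library.

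Among the DNMT3 genes, which set new methylation, Dnmt3b (mm9, chromosome 2, 153475185 to 153513466) was the most abundant member in every library. Its FPKM was 144, 319.9, 242 and 268. The +/+ XistdeltaA/+ library was the low one, and the other 3 lay between 242 and 319.9. Both MD1/MD1 libraries lay above both +/+ libraries. Dnmt3b ranked above 95.6%, 98.6%, 97.3% and 97.8% of the 11471 genes whose mean FPKM reached 1, called the genes tested from here on. In the XistdeltaA/+ pair it was 2.21 times higher in MD1/MD1 on the scale of FPKM + 1, which is used for all ratios within pairs unless stated. In the Xist1lox/+ pair it was 1.11 times higher. It was the 1 member of 8 at least 2-fold higher in the XistdeltaA/+ pair, where 3.91% of genes tested were, and 0 members were at least 2-fold higher in the Xist1lox/+ pair, where 0.445% were. No member was at least 2-fold lower in either pair, against 1.82% and 0.375% of genes. At 1.5-fold Dnmt3b was again the 1 member higher with XistdeltaA/+ (9.22% of genes) and 0 were lower (9.29%), and with Xist1lox/+ 0 were higher (1.57%) and 0 lower (1.62%).

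The model across all genes (limma, with Smchd1 genotype and Xist mutation as terms, 2 libraries against 2) put the MD1/MD1 effect on Dnmt3b at a log2 difference of 0.65 ± 0.26 (SE), with an unadjusted p of 0.0523 and a Benjamini-Hochberg adjusted p of 0.937. Its allele-assigned reads are a part of the same sequenced reads and so no independent check. They were 1410, 2892, 2439 and 2684 RPM (allele-assigned reads scaled to the total of the library) and had the same order as the FPKM. edgeR on these counts gave 0.59 with an adjusted p of 0.969. The difference between the +/+ libraries was itself 1.68-fold, larger than the Smchd1 difference in the Xist1lox/+ pair. In +/+ XistdeltaA/+, where Dnmt3b was lowest, the summed macrophage and fibroblast genes were also lowest. Of the 12 primed markers, 4 were lowest there, Pou5f1 among them, and 4 highest, Otx2 among them (80.9, 44.4, 47.5 and 66.2 FPKM). The part of these in the Dnmt3b difference was not tested, and in bulk RNA fewer cells of a type and less RNA per cell cannot be told apart. Without that library, the remaining Smchd1 comparison for Dnmt3b is the 1.11-fold difference of the Xist1lox/+ pair.

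Of 6302 genes whose mean FPKM reached 10, those with the pattern over the 4 libraries closest to Dnmt3b were Ifrd1, Maff and Rrp12. The distances between their centred log2 values were 0.047, 0.061 and 0.093. Ifrd1, for example, was at 38.7, 83.2, 64.0 and 69.9 FPKM. A pattern over 4 libraries is a description of these libraries only.

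Dnmt3a (chromosome 12, 3806980 to 3914443), the other de novo methyltransferase, had FPKM of 28.7, 30.6, 25.7 and 29.6. It was above its +/+ counterpart in both MD1/MD1 libraries, 1.06 times with XistdeltaA/+ and 1.15 times with Xist1lox/+, and the genotypes did not overlap. The model gave 0.14 ± 0.16 (SE) on the log2 scale (limma adjusted p = 0.941). Counted by allele-assigned reads the order was different, at 296, 251, 255 and 271 RPM, and the genotypes overlapped. The table has 1 entry for Dnmt3a, so its long and short forms were not separated. Dnmt3b exceeded Dnmt3a 5.01, 10.5, 9.40 and 9.04 times, and Dnmt3a was not low in the +/+ XistdeltaA/+ library, where Dnmt3b was.

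Dnmt3l (chromosome 10, 77505032 to 77526367), the cofactor of the de novo enzymes, was close to absent. Its FPKM was 0.0275, 0.209, 0.169 and 0.349, and it had 0, 7, 4 and 7 allele-assigned reads. The count of 0 allows up to 0.383 RPM. Both MD1/MD1 values were above both +/+ values, but at this depth no difference could be measured, and Dnmt3l was left out of the model by the FPKM minimum of 1. Of the summed FPKM of the 4 DNMT genes, Dnmt3b alone accounted for 59.5%, 76.7%, 73.3% and 74.0%.

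By FPKM the maintenance genes Dnmt1 and Uhrf1 differed least between libraries. Dnmt1 (chromosome 9, 20711650 to 20764332), the maintenance methyltransferase, was at 69.1, 66.4, 62.5 and 64.0 FPKM. Its highest library was 1.11 times its lowest. The MD1/MD1 ratio was 0.962 with XistdeltaA/+ and 1.02 with Xist1lox/+, and the model gave -0.011 ± 0.15 (SE) on the log2 scale (limma adjusted p = 0.998). After quantile or median-of-ratios scaling, and in edgeR on allele-assigned reads, this small value was above 0 instead. Uhrf1 (chromosome 17, 56442760 to 56462909), which recognises hemimethylated DNA and recruits DNMT1, was at 82.4, 91.6, 88.6 and 95.2 FPKM. Both MD1/MD1 libraries lay above both +/+ libraries, by 1.11 and 1.07 times within the pairs. Counted by allele-assigned reads Uhrf1 was at 267, 270, 231 and 329 RPM, a wider spread than that of Dnmt3a. The model gave 0.13 ± 0.15 (SE) for Uhrf1 (limma adjusted p = 0.942). Uhrf1 exceeded Dnmt1 1.19, 1.38, 1.42 and 1.49 times.

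The TET genes were expressed at much lower levels, and in the lower part of the genes tested. Tet1 (chromosome 10, 62267318 to 62342762), the main TET gene of pluripotent cells, was at 7.82, 6.47, 5.13 and 5.51 FPKM. It supplied 61.2%, 53.1%, 61.5% and 60.4% of the summed TET FPKM. Tet3 (chromosome 6, 83312368 to 83391672), known for its role in the zygote, was at 3.56, 4.93, 2.60 and 3.03 FPKM. Tet2 (chromosome 3, 133126641 to 133207354), known from blood cells, was at 1.40, 0.789, 0.616 and 0.586 FPKM and fell under the minimum for the model with a mean of 0.848. The highest library was MD1/MD1 XistdeltaA/+ for Tet3 and +/+ XistdeltaA/+ for Tet1 and Tet2.

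By Smchd1 genotype the TET genes had no common direction. The MD1/MD1 ratios of Tet1 were 0.847 with XistdeltaA/+ and 1.06 with Xist1lox/+, those of Tet3 were 1.30 and 1.12, and those of Tet2 were 0.745 and 0.981. The genotypes overlapped for all 3 genes. The model gave -0.075 ± 0.20 (SE) for Tet1 (limma adjusted p = 0.972) and 0.27 ± 0.22 (SE) for Tet3 (limma adjusted p = 0.937).

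Over the whole group, 0 of the 6 members in the Smchd1 model passed an adjusted p under 0.05, where 0.0349% of genes did, and 0 had an unadjusted p under 0.05, where 3.26% did. With edgeR on allele-assigned reads 0 of 7 members passed, and 0 of these had an unadjusted p under 0.05. Under other settings Dnmt3b reached an unadjusted p of 0.0498 in edgeR without a filter on low counts and of 0.0460 in limma without the Xist term. Dnmt3l, which enters limma only without the FPKM minimum, had an unadjusted p of 0.00496 and an adjusted p of 0.818 there. Of the 6 members, 3 lay higher in both MD1/MD1 than in both +/+ libraries without overlap (Dnmt3a, Dnmt3b and Uhrf1), a pattern found for 13.8% of genes tested, and 0 lay lower, as 18.9% of genes did. The median log2 ratio of the 6 members was 0.12 in both pairs, beside -0.048 and 0.0040 for all genes tested. Leaving out +/+ XistdeltaA/+ raised the count of members higher in MD1/MD1 to 6 and that over all genes to 32.7%, and leaving out +/+ Xist1lox/+ gave 2 lower members, Dnmt1 and Tet1, beside 43.5% of genes.

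**Figure D2:**
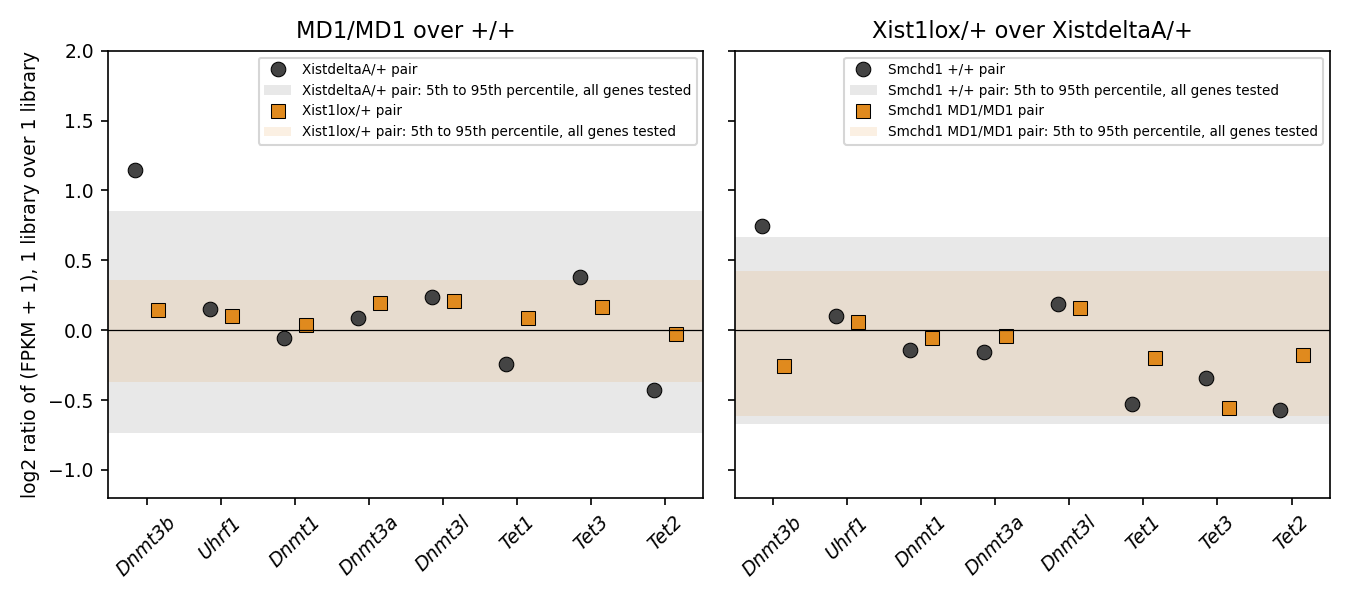
Log2 ratio of FPKM + 1 for each gene, MD1/MD1 over +/+ (left) and Xist1lox/+ over XistdeltaA/+ (right), 1 library over 1 library, with shaded bands from the 5th to the 95th percentile of the 11471 genes tested in each pair. In the left panel Dnmt3b at 1.15 in the XistdeltaA/+ pair is the only point outside the band of its pair, and in the right panel Dnmt3b at 0.75 in the Smchd1 +/+ pair is.

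The same libraries were then set against each other by Xist mutation. All 3 TET genes and Dnmt1 were lower in both Xist1lox/+ libraries than in both XistdeltaA/+ libraries. Within the +/+ pair, Xist1lox/+ was at 0.695, 0.673 and 0.790 times XistdeltaA/+ for Tet1, Tet2 and Tet3, and within the MD1/MD1 pair at 0.872, 0.886 and 0.680 times. Dnmt1 was at 0.905 and 0.964 times. Among the 6 members tested, 3 were lower without overlap (Dnmt1, Tet1 and Tet3), beside 17.9% of genes, and 0 were higher, beside 20% of genes. The same 3 genes were found with RPM, after quantile normalization and after median-of-ratios scaling.

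These differences did not pass the model. The Xist1lox/+ minus XistdeltaA/+ difference was -0.36 ± 0.20 (SE) on the log2 scale for Tet1 and -0.45 ± 0.22 (SE) for Tet3, each with a limma adjusted p of 0.927. In limma 0 of 6 members passed, as did 0.00% of all genes, 0 had an unadjusted p under 0.05 where 3.21% of genes did, and edgeR called 0 of 7 with 0 at an unadjusted p under 0.05. Without the FPKM minimum Dnmt3l had an unadjusted p of 0.00762 and an adjusted p of 0.971 in limma. Dnmt3b had 0.25 ± 0.26 (SE), with 1.68 times more in Xist1lox/+ among the +/+ libraries and 0.838 times as much among the MD1/MD1 libraries. No member was past 2-fold in either direction in these pairs on the FPKM + 1 scale, where 1.73% of genes were higher and 1.40% lower in the +/+ pair and 0.323% and 2.17% in the MD1/MD1 pair. At 1.5-fold Dnmt3b was the 1 higher member in the +/+ pair (6.94% of genes) and 0 were lower (7.22%), and in the MD1/MD1 pair 0 were higher (1.80%) and 0 lower (5.34%). As a plain ratio of FPKM, which the added 1 understates for a low gene, Tet2 was 2.28 times lower in +/+ Xist1lox/+ than in +/+ XistdeltaA/+, and 1.35 times lower in the MD1/MD1 pair. Leaving out +/+ XistdeltaA/+ gave 5 lower members, Dnmt1, Dnmt3a, Dnmt3b, Tet1 and Tet3, beside 35.1% of genes. Leaving out MD1/MD1 XistdeltaA/+ gave 2 higher members, Dnmt3b and Uhrf1, beside 38.5% of genes, and leaving out +/+ Xist1lox/+ gave 1, Uhrf1, beside 27.3%.

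The split of reads between parental alleles was examined next. In this cross some regions carry alleles of 1 strain alone, and there the paternal reads cannot be told from maternal ones and the share is near 0. For each member the median share of the genes within 5 Mb was therefore read in the same library, and a region was taken to hold both alleles at a median of 5% or more. By this rule 3 members, Dnmt1, Dnmt3b and Tet2, lay in regions with both alleles in all 4 libraries. Shares are given with exact Clopper-Pearson intervals at 95%, which cover counting error only.

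Uhrf1 had paternal shares of 53.0%, 0.139%, 49.2% and 0.0416%. Its neighbours had medians of 48.5%, 0%, 49.4% and 0%. The region of Uhrf1 thus carried both alleles in both +/+ libraries and 1 strain alone in both MD1/MD1 libraries, so an effect of Smchd1 genotype on Uhrf1 and an effect of the strain alleles at Uhrf1 cannot be told apart. Smchd1 lies on the same chromosome. The higher Uhrf1 FPKM of the MD1/MD1 libraries is read with this limit.

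Tet3 had shares of 54.5%, 53.1%, 0.192% and 1.15%, beside neighbour medians of 49.3%, 46.7%, 0% and 0%. Its region carried both alleles with XistdeltaA/+ and 1 strain alone with Xist1lox/+, so for Tet3 the Xist comparison and the strain alleles cannot be told apart. Tet1 had shares of 0.119%, 0.0744%, 0.324% and 48.3%, and its neighbours carried both alleles in MD1/MD1 Xist1lox/+ alone (median 48.5%). Dnmt3a was the reverse, with 51.1%, 49.4% and 49.0% and then 0.202% in MD1/MD1 Xist1lox/+, where its neighbours had a median of 0%. The FPKM of Dnmt3a in that library, 29.6, lay between those of the libraries with both alleles. The 5.51 FPKM of Tet1 in MD1/MD1 Xist1lox/+ lay between those of the libraries with 1 strain alone. Both comparisons rest on 1 library, in which genotype and strain alleles cannot be told apart.

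**Figure D3:**
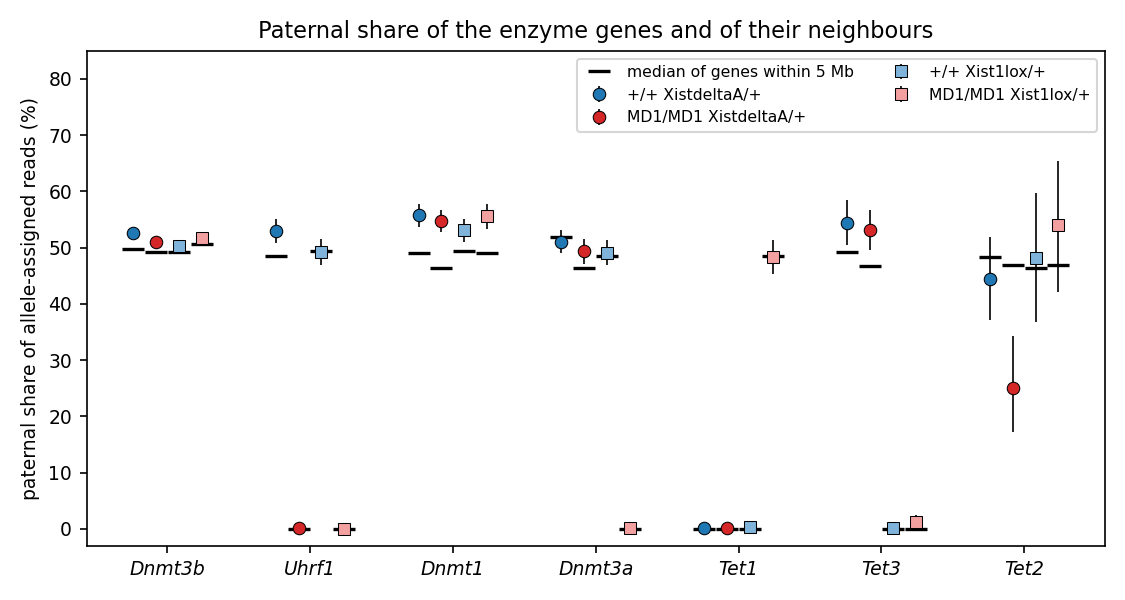
Paternal share of allele-assigned reads (%) of 7 genes in the 4 libraries with exact intervals at 95%, and the median share of the genes within 5 Mb as a black dash. Shares near 0% go with neighbours near 0%, and Tet2 in MD1/MD1 XistdeltaA/+, at 25% beside a neighbour median of 46.9%, is the point far below its dash.

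For members with both alleles throughout, the alleles were close to balance. Dnmt3b, with 11034 to 23160 reads a library, had shares of 52.5% (51.6 to 53.5), 51.0% (50.4 to 51.7), 50.2% (49.5 to 50.9) and 51.7% (50.99 to 52.4). Split by these shares, the paternal allele of Dnmt3b was at 75.7, 163, 122 and 138.5 FPKM and the maternal allele at 68.3, 157, 120.5 and 129. In the XistdeltaA/+ pair the paternal allele was 2.16 times and the maternal allele 2.29 times higher in MD1/MD1. Both alleles therefore differed by a like factor where the total did.

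Dnmt1 had shares of 55.7% (53.7 to 57.8), 54.7% (52.8 to 56.6), 53.0% (50.9 to 55.2) and 55.5% (53.4 to 57.7). All 4 intervals lay above 50%, and its neighbours had medians of 46.4% to 49.3%. Autosomal genes in regions with both alleles had 5th to 95th percentiles of 27.2% to 65.9% in +/+ XistdeltaA/+ and of 14.3% to 62.8% in MD1/MD1 XistdeltaA/+, so the Dnmt1 shares were well inside the usual range.

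Tet2 was the exception. Its shares were 44.4% (37.1 to 51.8), 25% (17.2 to 34.3), 48.1% (36.7 to 59.6) and 53.9% (42.1 to 65.5), on 187, 108, 79 and 76 reads. The MD1/MD1 XistdeltaA/+ library was the low one, and its interval did not reach those of the other 3. The share of 25% was still inside the 5th to 95th percentiles of autosomal genes with both alleles in that library, 14.3% to 62.8%. The paternal allele was at 0.622, 0.197, 0.296 and 0.316 FPKM and the maternal allele at 0.779, 0.592, 0.320 and 0.270. In the XistdeltaA/+ pair the paternal allele was thus 3.16 times lower in MD1/MD1 and the maternal allele 1.32 times lower. Fisher's exact test (two-sided) gave an adjusted p of 0.00374 over all genes with at least 20 reads, and 0.0109 over genes of regions with the same alleles. In the Xist1lox/+ pair the adjusted p from Fisher's exact test was 0.753. These tests compare the reads of 2 libraries, not the genotypes.

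In MD1/MD1 XistdeltaA/+, the library with the low Tet2 share, the summed FPKM of the macrophage and fibroblast genes was at its highest, 1031 and 419. In the 4 libraries the pooled reads of autosomal macrophage genes were 56.2%, 2.41%, 3.11% and 2.71% paternal, the first on 393 reads. Those of the fibroblast genes were 34.0%, 6.09%, 9.36% and 19.4% paternal. The part of these genes' cells in the Tet2 share was not tested.

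**Figure D4:**
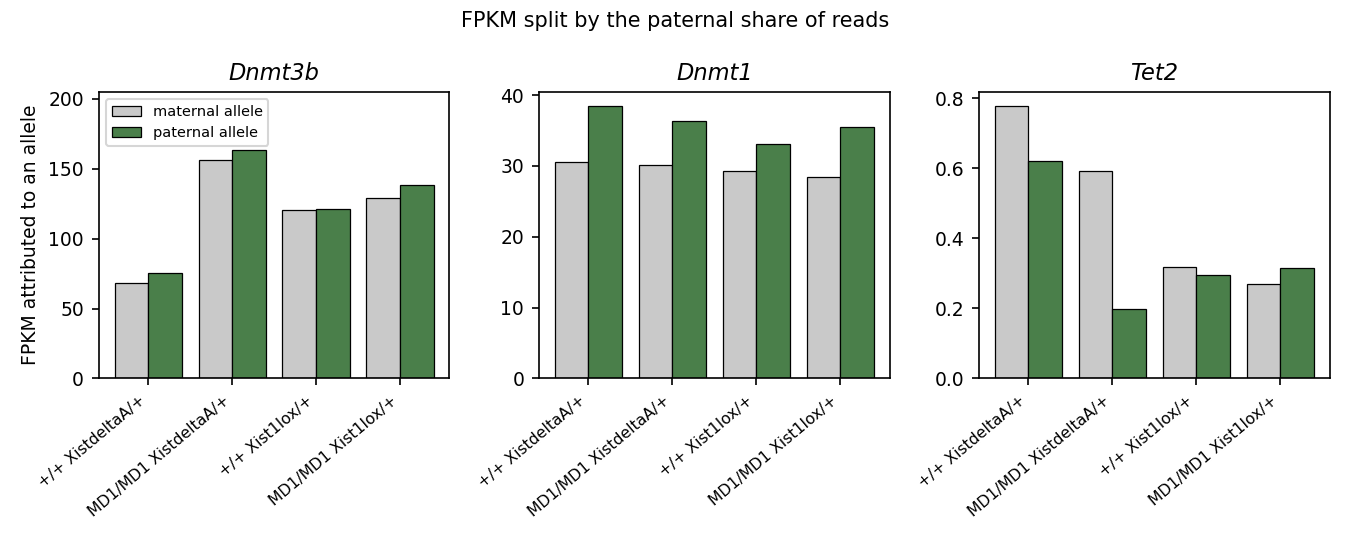
FPKM attributed to the maternal and the paternal allele (FPKM times the share of reads) of Dnmt3b, Dnmt1 and Tet2, which had both alleles in all 4 libraries, 1 library per bar. Both bars of Dnmt3b are lowest in +/+ XistdeltaA/+, and the paternal bar of Tet2 in MD1/MD1 XistdeltaA/+ is at 0.197 beside a maternal bar of 0.592.

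Over 7 members with enough reads, Fisher's exact test called 3 in the XistdeltaA/+ pair (Dnmt3b, Uhrf1 and Tet2), where 37.2% of genes were called, and 4 in the Xist1lox/+ pair (Dnmt3a, Dnmt3b, Uhrf1 and Tet1), where 36.7% were. The alleles of the region differed between the libraries for 1 of the 7 with XistdeltaA/+ (Uhrf1), beside 23.9% of genes, and for 3 with Xist1lox/+ (Dnmt3a, Uhrf1 and Tet1), beside 32.9%, and these were all among the calls. In regions with the same alleles in both libraries, Tet2 was the 1 call among 6 members in the XistdeltaA/+ pair, beside 15.3% of genes, and 0 of 4 were called in the Xist1lox/+ pair, beside 4.34%. Dnmt3b was among the calls at differences of 1.52 points lower in MD1/MD1 with XistdeltaA/+ and 1.46 points higher with Xist1lox/+ (adjusted p = 0.0252 and 0.0125 from Fisher's exact test). It was no longer called when adjusted over regions with the same alleles, at 0.0548 and 0.0808. Between Xist mutations the test called 2 members in the +/+ pair (Dnmt3b and Tet3), beside 25.0% of genes, and 4 in the MD1/MD1 pair (Dnmt3a, Tet1, Tet2 and Tet3), beside 29.1%. The region differed for Tet3 in the +/+ pair, as for 17.8% of genes, and for Dnmt3a, Tet1 and Tet3 in the MD1/MD1 pair, as for 21.6%. Over regions with the same alleles the calls were Dnmt3b in the +/+ pair (5.75% of genes) and Tet2 in the MD1/MD1 pair (7.48%).

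The partners of these enzymes were read from lists of genes by function. For the maintenance machinery, 0 of 10 genes passed limma in either direction for Smchd1 genotype. In each of the lists that follow, and among the 8 members, 0 genes were at least 2-fold higher in both pairs (0.131% of genes tested) or lower in both (0.113%). Pcna, the replication clamp, was at 229.7, 267, 312 and 298.5 FPKM, and Cdca7, which works with the remodeller HELLS, at 84.3, 83.3, 88.8 and 97.2. Hdac2, a histone deacetylase, was at 149, 88.6, 126 and 118, and the DNA ligase gene Lig1 at 101, 92.0, 90.6 and 101.6. Pcna and Hdac2 spread more across libraries than Lig1 and Cdca7. The medians of the list were -0.090 and 0.0095 on the log2 scale, beside -0.048 and 0.0040 for all genes.

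Of 10 genes that target or protect methylation, 0 passed either way. Trim28, the corepressor of KRAB zinc finger proteins, was at 364, 399, 448 and 443 FPKM, above every other gene of these lists. Kdm1a, a histone demethylase, was at 115, 81.1, 98.6 and 99.1, Cbx5, a heterochromatin protein, at 66.4, 54.3, 50.9 and 58.0, and Ehmt2, a histone methyltransferase, at 53.0, 48.9, 50.1 and 45.5. The list had medians of -0.045 and 0.029.

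Of the 8 readers of methylated CG, 6 were tested and 0 passed. Mbd3, whose protein binds methylated DNA only weakly and sits in the NuRD complex, was at 125.5, 108, 135 and 123 FPKM. It was far above Mbd2 (7.69, 7.36, 6.38 and 4.99), Mbd1 (5.70, 6.64, 4.83 and 5.15) and the glycosylase gene Mbd4 (5.45, 5.27, 5.16 and 5.02). The medians of the list were -0.049 and 0.022.

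Of 15 genes of demethylation and base excision repair, 13 were tested and 0 passed, with medians of -0.057 and 0.023. Apex1, the abasic site endonuclease, was at 96.7, 140.2, 181 and 164 FPKM. Gadd45b was at 75.4, 93.8, 65.5 and 86.8, higher in MD1/MD1 in both pairs (log2 ratios 0.31 and 0.40). Its paternal shares were 0%, 1.09%, 0.201% and 57.1%, and the part of the strain alleles in its level was not tested. Parp1 was at 118, 117, 115 and 116, and Idh2, which makes the TET cosubstrate, at 75.6, 71.6, 91.4 and 69.7. Dppa3, an inhibitor of UHRF1 in the germline and naive cells that was named after its values were seen, was listed at 0 in all 4 libraries.

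Of 12 genes of the methyl donor cycle, 11 were tested and 0 passed, with medians of -0.016 and 0.043. Mthfd1, a folate enzyme, was at 181, 177, 182 and 193.6 FPKM and Shmt2 at 107, 152, 235 and 186. Mat2a, which makes the methyl donor S-adenosylmethionine, was at 44.8, 98.3, 71.9 and 89.5. It was 2.17 times higher in MD1/MD1 in the XistdeltaA/+ pair and 1.24 times higher in the Xist1lox/+ pair. Its paternal shares were 0%, 50.6%, 0% and 0%, and the part of the strain alleles in its level was not tested. The lowest library of Mat2a was +/+ XistdeltaA/+, which was also that of Dnmt3b. Ahcyl1 had its highest value there instead, at 73.7, 47.8, 47.1 and 53.6.

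Germline genes known to be silenced by promoter methylation stayed low in all libraries. Of 14 in the table, 1 reached the minimum for testing, Tex19.1, at 0.804, 1.51, 1.96 and 1.53 FPKM (limma adjusted p = 0.970), and 4 were listed at 0 throughout. The next by mean level were Sycp3, a synaptonemal complex gene, at 0.165, 0.283, 0.268 and 0.0580, and Ddx4, at 0.181, 0.0737, 0.205 and 0.187. Their sum over the list was 1.27, 2.13, 2.58 and 2.02 FPKM, higher in MD1/MD1 with XistdeltaA/+ and lower with Xist1lox/+.

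Zbtb33 and Ogt of these lists are X-linked and were named after their values were seen. Zbtb33, which encodes the reader Kaiso, was paternal at 0% and 0.515% in +/+, where 0 of 384 reads allows up to 0.781%, and at 3.97% and 6.79% in MD1/MD1 (adjusted p = 0.000237 and 0.00202 from Fisher's exact test). Its FPKM was 4.06, 3.37, 2.27 and 3.12, lower in MD1/MD1 with XistdeltaA/+ and higher with Xist1lox/+ (log2 ratios -0.21 and 0.33). Ogt, whose product binds TET proteins, had paternal shares of 0.0748% and 0.254% in +/+ and of 32.5% and 32.7% in MD1/MD1. Fisher's exact test gave adjusted p-values of 9.69e-153 and 2.43e-135. The FPKM of Ogt was 28.9, 34.0, 24.2 and 34.0, higher in MD1/MD1 in both pairs (log2 ratios 0.23 and 0.48).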

How the data were processed

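RNA of 4 EpiSC samples was sequenced as stranded mRNA, as the labels' protocols state. Build mm9, Cufflinks 2.2.1 and Cuffdiff appear, without their roles, in the submitters' processing notes. For the aligner, variant list and annotation a name was not given in the sources used here. Per the file headers, the authors deposited FPKM, counts of allele-assigned reads (those over a strain variant) and the paternal fraction of these. Whether FPKM was scaled between libraries is not known. The fraction times the count was whole for 100% of 45860 values within 1e-06. Not used were 6 columns that belong to no sample of the series. Gene starts count from 0 in the table and are printed from 1.

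limma 3.58.1 with a trend was run on log2(FPKM + 1) of 11471 genes, those with a mean of 1 or more, with Smchd1 genotype and Xist mutation as terms and 1 residual degree of freedom. With 1 library per combined genotype, the residual is how far the Smchd1 effects of the 2 Xist backgrounds differ, moderated over all genes. That difference may be technical, and the p-values measure no spread between replicates. edgeR 4.0.16 on the read counts was an alternative, since these leave out genes without variants. Fisher's exact test took genes with at least 20 reads in both libraries, adjusted over all of them. Reads without molecular identifiers are not independent molecules. The tests were tried on simulated data. Members, lists and tests were chosen with earlier results of these data known. Named partners are the 4 of each list with the highest mean FPKM, since 0 passed limma or 2-fold in both pairs, and other genes, markers included, were chosen with their values seen. Genes like a member are the 3 closest by Euclidean distance, for members whose highest FPKM is at least 2 times the lowest. A gene that this rule names is not reported here.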

Additional observations from a re-analysis of the deposited data

Results flagged for a closer look

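With 1 library a group, no library could be tested as an outlier within its group. Some members differed between MD1/MD1 and +/+ in opposite directions in the 2 Xist backgrounds, and the difference between backgrounds was not tested. The log2 ratio of FPKM + 1 was -0.056 with XistdeltaA/+ and 0.034 with Xist1lox/+ for Dnmt1, and -0.24 and 0.088 for Tet1. Among members with both alleles in every library, the paternal share of Dnmt1 differed by -1.06 points and 2.49 points, that of Dnmt3b by -1.52 points and 1.46 points, and that of Tet2 by -19.4 points and 5.85 points. The Tet2 shares rest on 76 to 187 reads a library.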

How the results depend on the processing

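Of the 8 members, 0 were called by limma or edgeR under any setting run. For Smchd1 genotype the 6 tested members kept their direction in 36 of 42 alternative fits, and adjusted p-values ran from 0.926 to 1. Dnmt3b stayed between 0.58 and 0.70 on the log2 scale. Directions turned for Dnmt1 with quantile normalization (0.026), median-of-ratios scaling (0.025) and edgeR with and without a filter (0.076 and 0.072), and for Dnmt3a in edgeR with and without a filter (-0.079 and -0.084). For the Xist mutation 41 of 42 kept it and Uhrf1 turned with quantile normalization (-0.013). Over all genes the Smchd1 model called 4 genes, 0 without an FPKM filter and 22 in edgeR without a count filter, and the Xist model 0, against 11 in edgeR without a count filter. With a pseudocount of 0.1, members past 2-fold numbered 2 in place of 1 in the XistdeltaA/+ pair, Dnmt3l being added as higher (5.49% of genes). In the +/+ pair of Xist mutations they numbered 2 in place of 0, Dnmt3l higher (3.32%) and Tet2 lower (2.74%). By RPM that pair had 1, Tet2 lower (2.69%), and at 1.5-fold 1, Dnmt3b higher (6.94%). Adjusted over regions with the same alleles, which leaves out members elsewhere, the share test called 1, 0, 1 and 1 members in place of 3, 4, 2 and 4. The groups that do not overlap were also counted without each library, which was chosen after seeing the data: 3 to 6 of 6 members were higher in MD1/MD1 (24.6% to 34.6% of genes) and 0 to 2 lower (27.6% to 43.5%), and 0 to 2 were higher in Xist1lox/+ (27.3% to 44.9%) and 3 to 5 lower (25.5% to 44.7%). Fewer libraries overlap less by construction. Other causes were not tested. The labels give no replicate numbers, and the Smchd1 model already pairs the libraries by Xist mutation. Without that term Dnmt3b had a log2 difference of 0.65 (limma adjusted p = 0.959). Depth limits Dnmt3l, with 0 to 7 reads, and the Tet2 shares.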

Other observations

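The patterns closest to those of Tet2 and Dnmt3l over the 4 libraries were sought by the same distance as for Dnmt3b. For Tet2 the closest were Abhd4 and Ktn1, of which Abhd4 was at 45.6, 33.3, 29.2 and 29.3 FPKM in the order used above. For Dnmt3l they were Tfdp1, Fpgs and Nob1, at distances of 0.016, 0.031 and 0.033. The values of Dnmt3l lie near 0 on the scale of log2(FPKM + 1), where the added 1 makes differences small. With 0 to 7 allele-assigned reads its pattern could not be measured, so no likeness is read from these distances. Trophoblast genes were at 5.34 FPKM or less, with a summed FPKM of 6.36, 12.9, 6.17 and 2.55 over 7 genes. Hand1, at 0.372, 5.19, 0.277 and 0.189, and Krt7, at 2.55, 5.34, 3.53 and 0.424, were highest in MD1/MD1 XistdeltaA/+. Tfap2c was highest in +/+ XistdeltaA/+ instead, at 3.02, 1.51, 1.45 and 1.14. Primitive endoderm genes had summed FPKM of 8.40, 11.04, 6.88 and 7.12 over 6 genes.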
